A study of Mus musculus with 2 samples.

Results

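Grb10, Plagl1, Igf2r, Airn and Rasgrf1 are imprinted mouse genes that act on growth, and their CpG methylation was read in 2 haploid embryonic stem cell lines. They are 5 of the 49997 genes of the RefSeq table for GRCm38.p6, the assembly of mm10, and lie in 4 loci because Airn overlaps Igf2r. Members were chosen by position: each gene with 10 kb on either side, and within it every CpG covered by 10 reads or more in both lines. This gave 298 CpGs of 1030368, with 164 at Grb10, 49 at Plagl1, 55 at Igf2r and Airn, and 30 at Rasgrf1. In all 4 loci 588 CpGs were listed in either line.

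The line A129-2 has a 129Sv background and the line AOS-14 a C57BL/6 background, and each gave 1 library of genomic DNA. Both come from sorted AG-haploid embryos, taken here as androgenetic, so that each line holds 1 chromosome set derived from sperm. Line, strain and library cannot be told apart, and no difference has a replicate check. Read counts given for several CpGs are summed over them, so a read is counted once at each CpG it covers. Fisher's exact test below compares the reads of 2 libraries, and because neighbouring CpGs share reads, its p-values and the exact 95% binomial intervals on summed reads are too narrow and cover counting error only.

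Imprinted genes are expressed from one parental copy, and the choice is set by a germline region whose methylation differs between oocyte and sperm. As background, the germline regions of Grb10, Plagl1 and Airn receive methylation in the oocyte, whereas that of Rasgrf1, which lies upstream of the gene, receives it in sperm. The factor ZFP57 binds the methylated hexamer TGCCGC and helps to keep such methylation after fertilization.

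Grb10 encodes an adaptor that restrains insulin and growth factor receptor signalling. It lies on the minus strand at chr11:11930499-12037428. Plagl1, a zinc finger transcription factor that limits cell growth, lies on the plus strand at chr10:13090832-13131694. Igf2r, the receptor that carries IGF2 to the lysosome, lies on the minus strand at chr17:12682406-12769706. Airn, a noncoding RNA that starts inside Igf2r and runs against it, lies at chr17:12741311-12859884. Rasgrf1, an exchange factor for Ras, lies on the plus strand at chr9:89909508-90026979.

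The promoters below, from RefSeq on GRCm38.p6, are shown because they hold the CpGs on which the promoter values rest. Each is given on the strand of its gene, from 250 bases before to 50 after the start, and capitals mark CpGs compared in both lines. The Plagl1 promoter, chr10:13090582-13090881 on the plus strand, is also part of its germline region and has 9 compared CpGs of 26. The Grb10 promoter, chr11:12037371-12037670 on the minus strand, has 37 of 45, and the Igf2r promoter, chr17:12769657-12769956 on the minus strand, has 18 of 34.
Plagl1: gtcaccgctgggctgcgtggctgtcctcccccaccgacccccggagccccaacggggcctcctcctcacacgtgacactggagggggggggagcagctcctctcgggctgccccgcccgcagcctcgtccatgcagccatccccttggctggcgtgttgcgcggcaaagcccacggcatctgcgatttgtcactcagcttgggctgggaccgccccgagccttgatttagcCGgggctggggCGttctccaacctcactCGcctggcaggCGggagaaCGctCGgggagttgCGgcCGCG
Grb10: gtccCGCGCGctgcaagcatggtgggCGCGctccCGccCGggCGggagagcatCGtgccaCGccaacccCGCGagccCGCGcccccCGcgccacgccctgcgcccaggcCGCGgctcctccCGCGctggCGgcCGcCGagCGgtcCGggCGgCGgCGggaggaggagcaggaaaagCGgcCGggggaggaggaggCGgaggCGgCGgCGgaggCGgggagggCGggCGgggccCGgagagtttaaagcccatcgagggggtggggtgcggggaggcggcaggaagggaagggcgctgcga
Igf2r: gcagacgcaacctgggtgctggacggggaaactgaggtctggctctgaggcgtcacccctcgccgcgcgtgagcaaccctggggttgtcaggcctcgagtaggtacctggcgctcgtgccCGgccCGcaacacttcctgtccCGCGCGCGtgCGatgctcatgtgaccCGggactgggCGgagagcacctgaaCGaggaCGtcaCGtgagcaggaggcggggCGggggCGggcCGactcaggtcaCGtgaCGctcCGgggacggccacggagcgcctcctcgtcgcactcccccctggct
The hexamer TGCCGC, searched on both strands (reverse complement GCGGCA), occurs once in the Plagl1 and once in the Grb10 promoter, both times as the reverse complement, and not in the Igf2r promoter. The CpG within each of these hexamers was not compared. It occurs in 11.6% of the 32851 promoters of this length. Their median is 7 CpGs, below the 26 of Plagl1 and the 45 of Grb10, so this share is not matched for CpG content. The promoters of Airn and Rasgrf1, and a second start of Grb10, had 0 compared CpGs within these 300 bases.

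Averaged over the compared CpGs of the 4 loci, methylation was 6.15% in the A129-2 library and 8.39% in the AOS-14 library, against 9.48% and 14.998% over all compared CpGs. Depth was a median of 84 and 93 reads per member CpG. CpGs in the motif CCGG, the site cut by MspI, read higher than others over the libraries, though not in every segment. Over all compared CpGs their mean was 18.9% in A129-2 and 27.9% in AOS-14, and that of other CpGs was 4.74% and 8.49%. In the Rasgrf1 body, for one, they had 17.7% and 28.1% against 20.1% and 28.8% for the others. Segments hold different shares of such CpGs, so levels of both kinds are given for some segments and for the comparisons pooled over loci. Other segment means mix both kinds. The 20 compared CpGs of mitochondrial DNA, 7 of them in CCGG, gave 3.31% of pooled reads in A129-2 and 4.52% in AOS-14. Pooled levels of the germline regions and 5′ ends below lie near or under these values. Whether such low levels are methylation or incomplete bisulfite conversion was not tested.

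**Figure D1:**
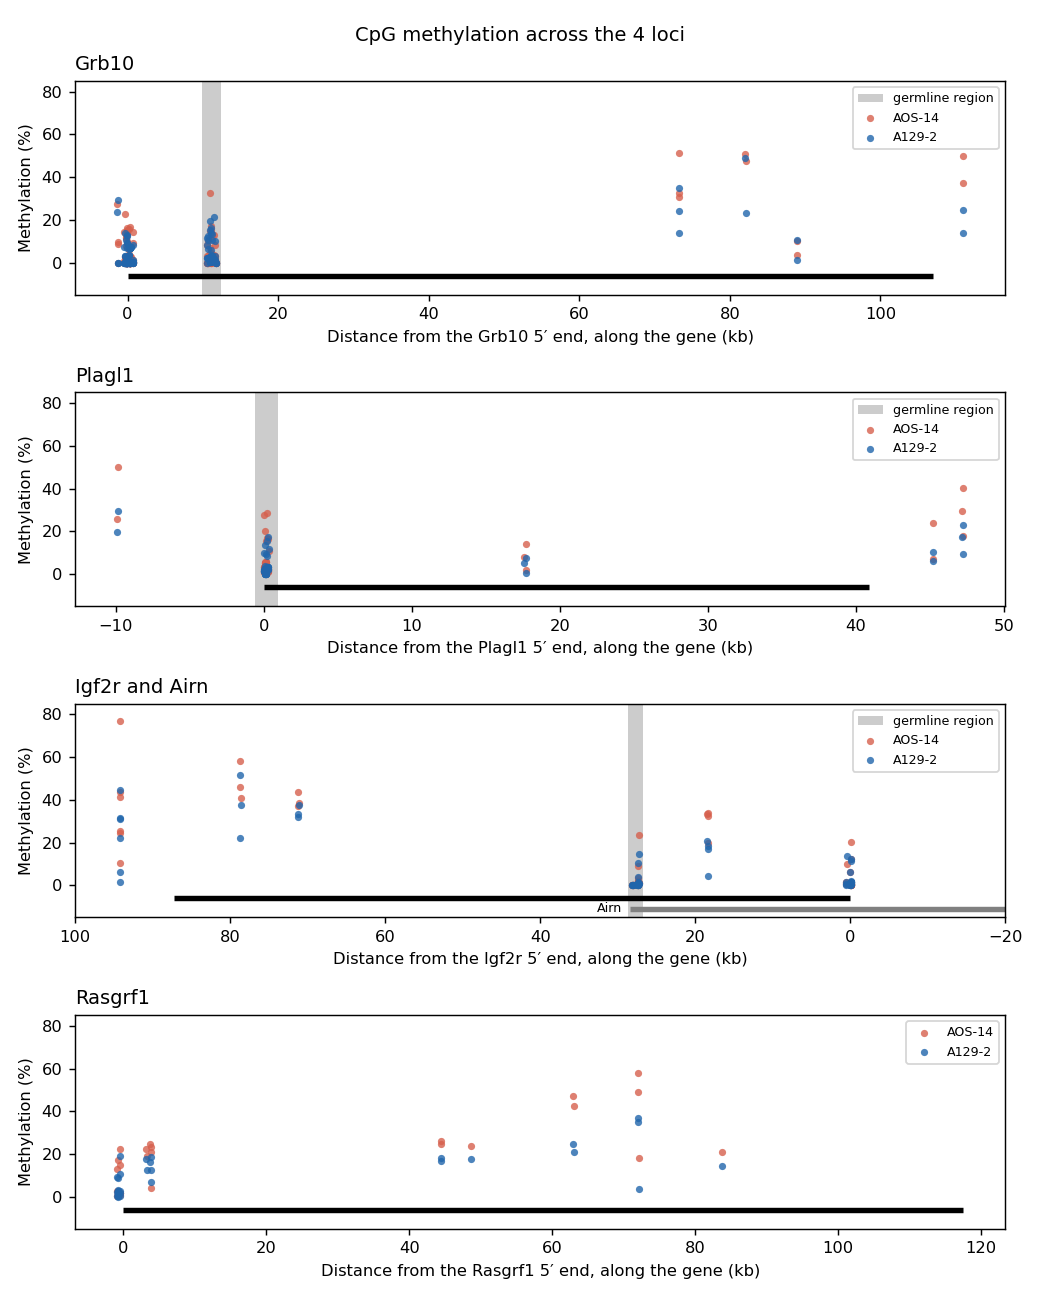
CpG methylation in percent (vertical axis) against distance from the 5′ end of each gene in kb (horizontal axis), with 1 point per compared CpG and line. Black bars are genes, and the grey bar is Airn, which runs past the edge of the plot. Grey bands mark the compared CpGs of the germline regions, widened on each side for visibility. Most points in the bands and at the 5′ ends lie low. The points of the bodies and flanks lie higher on average, with overlap between the groups.

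In Grb10, the germline region (chr11:12025586-12026880, within the gene) was low in both lines. Its 67 CpGs averaged 3.83% in A129-2 and 3.70% in AOS-14. The pooled reads gave 2.83% (2.54% to 3.15%, 333 of 11767 reads) in A129-2 and 2.69% (2.36% to 3.05%, 233 of 8666 reads) in AOS-14, a difference within counting error (exact Fisher test, adjusted p = 0.661 with all windows). With bounds 0.5 kb narrower the exact test passed, by 0.215 points higher in A129-2 (adjusted p = 0.0195), and the sign of this small difference turned under other settings. Single CpGs ran from 0 to 21.2% in A129-2 and from 0 to 32.7% in AOS-14. The high ones were in the CCGG motif: 11 such CpGs averaged 13.6% and 14.4%, and the other 56 averaged 1.90% and 1.60%.

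The Grb10 5′ end, within 1 kb of its start, was as low as the germline region or lower. Its 84 CpGs averaged 2.56% and 2.78% in A129-2 and AOS-14 (exact Fisher test, adjusted p = 0.315). The body was higher in both lines and lower in A129-2 than in AOS-14, with 7 CpGs at 22.4% and 32.5% (exact Fisher test, adjusted p = 1.98e-28). Most gene bodies moved that way: 85.9% of 13333 bodies had less methylation in A129-2 with an adjusted p under 0.05. Downstream, 2 CpGs had 19.3% and 43.75%, and upstream 4 CpGs had 13.2% and 11.5%, too few to test.

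In Plagl1, the germline region is also the 5′ end of the RefSeq gene, chr10:13090576-13091188. Its 39 CpGs averaged 3.64% in A129-2 and 5.68% in AOS-14. The pooled reads gave 3.51% (2.90% to 4.20%, 114 of 3250 reads) and 4.31% (3.74% to 4.95%, 193 of 4476 reads), and the exact Fisher test gave an adjusted p of 0.121. The 7 CpGs in CCGG averaged 12.3% and 19.4%, the other 32 averaged 1.75% and 2.68%. Part of it fell in the window chr10:13090001-13091000, where 24 CpGs had 2.58% and 5.42% (exact Fisher test, adjusted p = 8.06e-04), under the 25 points required for a call.

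Outside that region Plagl1 was higher. Its downstream flank had 13.2% and 23.7% over 5 CpGs (exact Fisher test, adjusted p = 1.30e-04), and 70.9% of 12432 right flanks were lower in A129-2 by the same threshold. Its upstream flank had 24.6% and 38.0% over 2 CpGs, and its body 4.39% and 7.78% over 3. The Plagl1 body lay near its germline region, but rests on 3 CpGs and was not tested. Its 2 CpGs in CCGG had 6.23% and 10.8%, below those of the germline region. Farther out, a CpG-dense stretch at chr10:13060882-13061221, from 29.6 to 29.95 kb before the start, had 4.58% and 3.79% over 19 CpGs.

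In Igf2r and Airn, the germline region spans the Airn start, chr17:12740311-12743311. Its 17 CpGs averaged 1.96% in A129-2 and 2.69% in AOS-14. The pooled reads gave 2.54% (1.80% to 3.47%, 38 of 1497 reads) and 3.08% (2.14% to 4.28%, 34 of 1104 reads; exact Fisher test, adjusted p = 0.559). Of these, the 7 CpGs within 1 kb of the Airn start had 0 methylated of 83 reads in A129-2 and 1 of 144 in AOS-14, summed over CpGs. The 0 allows up to 3.61% by the limit of 3 reads and 4.35% by the exact 95% interval. Both limits are too low, because neighbouring CpGs share reads. The Airn 5′ end is the lowest segment of the 4 loci, and also the shallowest of those tested.

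The Igf2r 5′ end was low as well, with 22 CpGs at 2.73% and 2.67% (exact Fisher test, adjusted p = 0.112). Without CpGs in CCGG it passed the exact test, higher in A129-2 (0.897% against 0.531%, adjusted p = 0.0367), as it did on plus-strand reads alone (adjusted p = 0.00904). In the Igf2r body 10 CpGs had 27.5% and 38.5% in A129-2 and AOS-14 (exact Fisher test, adjusted p = 1.66e-12). The downstream flank of Igf2r had 22.9% and 37.2% over 6 CpGs (exact Fisher test, adjusted p = 2.60e-07), beside 71.2% of 12182 left flanks lower at that threshold. On plus-strand reads alone this flank did not pass (exact Fisher test, adjusted p = 0.169). The Airn body averaged 4.64% and 6.87% over 26 CpGs (exact Fisher test, adjusted p = 8.81e-12). It contains the 22 CpGs of the Igf2r 5′ end, which on average were not lower in A129-2. Its other CpGs, at chr17:12751283-12751363, also belong to the Igf2r body. Each of these was lower in A129-2, with differences from -12.8 to -16.9 points. The Airn body is therefore no separate measurement, and its lower level in A129-2 comes from CpGs already counted in the Igf2r body.

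For Rasgrf1, the gene with a sperm-methylated germline region, the interval from 27 to 34 kb before its start (chr9:89875508-89882508) held 0 listed CpGs. Its methylation was therefore not analysed here. The nearest compared CpGs lie outside the interval. On its far side, 3 CpGs from 34.8 to 34.9 kb before the start averaged 14.6% in A129-2 (45 of 321 reads) and 25.8% in AOS-14 (114 of 485 reads). On its near side, 3 CpGs from 23.6 to 23.7 kb before the start averaged 11.5% (10 of 107 reads) and 22.4% (40 of 199 reads). Both groups lay above the mean of the Rasgrf1 5′ end and below that of its body. This order is not matched for motif, because CCGG held 2 of 3 CpGs in each group, 4 of 15 at the 5′ end and 12 of 15 in the body. The other CpG had 11.25% in A129-2 and 16.9% in AOS-14 on the far side, and 1.89% and 10.1% on the near side. Other CpGs of the 5′ end averaged 1.48% and 1.44%.

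The Rasgrf1 5′ end was low, with 15 CpGs at 4.27% and 5.56% (exact Fisher test, adjusted p = 0.212), and its body higher, with 15 CpGs at 18.2% and 28.3% (exact Fisher test, adjusted p = 1.04e-16). The Rasgrf1 flanks had 0 compared CpGs.

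**Figure D2:**
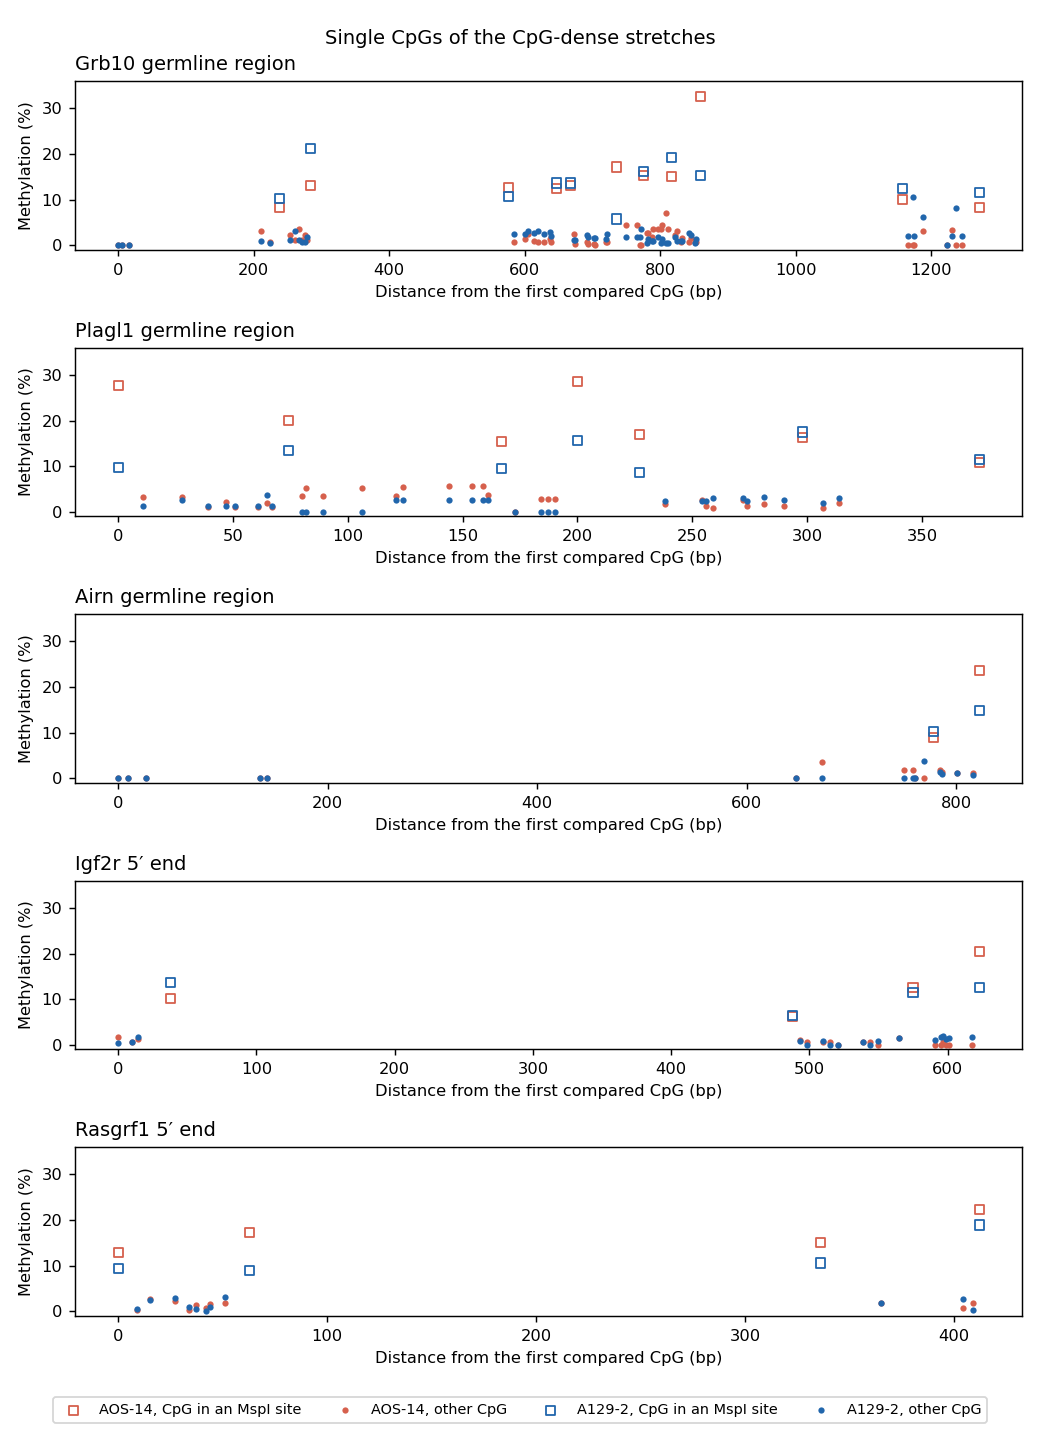
Methylation in percent (vertical axis) of single CpGs against distance in bp from the first compared CpG (horizontal axis) in the germline regions and 2 of the 5′ ends. Squares are CpGs in MspI sites and dots other CpGs; the squares reach 32.7% and most dots lie under 5%.

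Within a line, each germline region with data lay below the body and flanks of its locus. The means differed by -15.3 points in A129-2 and -24.0 in AOS-14 at Grb10, by -9.18 and -16.1 at Plagl1, and by -23.8 and -35.3 at Igf2r and Airn. These are descriptions, since CpGs of 1 library are not replicates. They are also not matched for CpG density. The Grb10 and Plagl1 regions were placed on CpG-dense stretches, and the 5′ ends were left out of body and flanks. Whether the order follows CpG density alone was not tested. Over these 3 loci, body and flanks held more CpGs in CCGG (23 of 39) than the germline regions (20 of 123), so the comparison was repeated within each kind. CpGs in CCGG had 13.1% and 16.3% in germline regions and 24.2% and 33.5% in body and flanks. Other CpGs had 1.66% and 1.83% in germline regions and 14.6% and 26.01% in body and flanks. The means kept this order in both kinds at each of the 3 loci and in both lines with body and flanks as one pool, but not in every part of them. The Plagl1 body is given above, and the 2 other CpGs of the Grb10 upstream flank had 0 methylated reads in A129-2. The median of the 5 other CpGs in the Grb10 body and flanks was 1.03% in A129-2, below the 1.67% of its germline region, so the order of the means there rests on few CpGs. Without CpGs in CCGG the Grb10 difference came to -6.06 and -17.2 points. With bounds 0.5 kb narrower it came to -3.73 and -5.84 when the left-over CpGs counted as body, and to -15.5 and -24.3 when they were left out, a choice made after the values were seen.

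The germline regions of Grb10 and Airn did not stand clearly below the 5′ ends of Grb10 and Igf2r. Plagl1 allows no such comparison, because its 5′ end is its germline region. Over the Grb10 and Igf2r 5′ ends, other CpGs (92) had 1.55% in A129-2 and 1.04% in AOS-14, and those in CCGG (14) had 9.48% and 14.1%. At Grb10 the germline region was 1.27 points above the 5′ end in A129-2 and 0.918 in AOS-14. At Igf2r and Airn the difference was -0.772 and 0.0107.

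The CCGG levels of the germline regions were similar on both strands, at 13.2% of 735 plus-strand and 13.5% of 986 minus-strand reads in A129-2, and at 15.5% of 822 and 15.7% of 809 in AOS-14. They were also within the usual range of low regions of these libraries. In 18888 windows of 1 kb whose other CpGs averaged under 5% in both lines, a limit set after the data were seen, CpGs in CCGG had a median of 11.6% in A129-2 (5th to 95th percentile 6.92% to 17.1%) and 14.3% in AOS-14 (9.27% to 20.2%). What raises CpGs in CCGG was not tested.

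**Figure D3:**
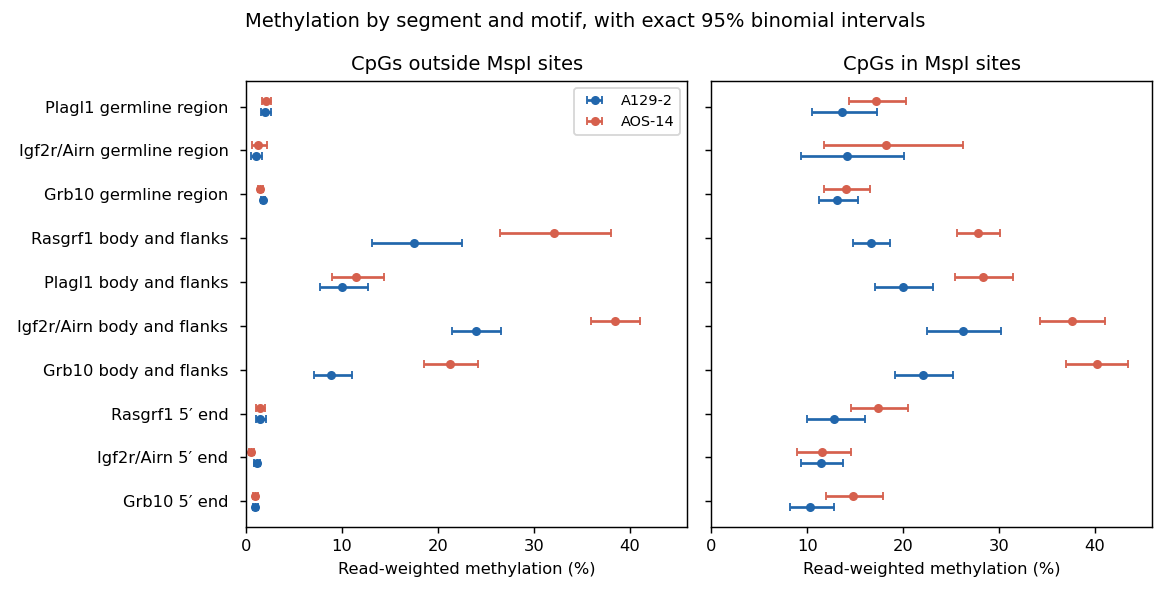
Read-weighted methylation in percent (horizontal axis) of each segment in both lines, for CpGs outside (left) and inside (right) MspI sites, with exact 95% binomial intervals for counting error. Outside MspI sites the germline regions and 5′ ends lie near 0 and the bodies and flanks lie higher; inside them the germline regions and 5′ ends lie above 10%, still under the bodies and flanks in AOS-14.

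Between the lines, few member CpGs met the call rule, which asks for an adjusted p under 0.05 together with 25 points or more between the lines. The rule called 3 of 298 member CpGs, all lower in A129-2, beside 4.11% of all compared CpGs and 4.08% in that direction. Without the 25 points, 15 member CpGs passed, all lower in A129-2, beside 13.0% of all and 12.9% in that direction. Of these, 1 lies in a germline region, that of Grb10, at chr11:12026418. It had 1 methylated of 222 reads in A129-2 and 8 of 113 in AOS-14 (exact Fisher test, adjusted p = 0.00989). Fewer member CpGs could show a loss of 25 points: 33 of 298 (11.1%) reached 25% in AOS-14, against 25.4% of all CpGs. Of any size, 154 of the 298 were lower in A129-2, 103 higher and 41 equal, while of all compared CpGs 62.4% were lower and 20.3% higher.

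The called CpGs all lay in body or flanks. In the Grb10 body, the CpG at chr11:11964250 had 61 methylated of 251 reads in A129-2 (24.3%, 19.1% to 30.1%) and 168 of 327 in AOS-14 (51.4%, 45.8% to 56.9%; exact Fisher test, adjusted p = 1.95e-09). In the Grb10 downstream flank, the CpG at chr11:11926475 had 31 of 125 (24.8%) and 41 of 82 (exact Fisher test, adjusted p = 0.00399). In the Igf2r downstream flank, the CpG at chr17:12675508 had 20 of 45 (44.4%) and 54 of 70 (77.1%; exact Fisher test, adjusted p = 0.00702), the highest level of the 298 in AOS-14.

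Among CpGs at an adjusted p under 0.05, the largest differences under the limit were also losses in A129-2 outside germline regions. Some CpGs that did not pass differed as much. The largest gain was in the Grb10 upstream flank at chr11:12038625, with 5 of 17 reads (29.4%) in A129-2 and 5 of 56 (8.93%) in AOS-14. In the Grb10 body the CpG at chr11:11955347 had 23.1% and 47.8% (exact Fisher test, adjusted p = 1.15e-04). In the Igf2r body the CpG at chr17:12690953 had 22.3% and 46.3% (exact Fisher test, adjusted p = 0.00341). In the Igf2r downstream flank the CpG at chr17:12675440 had 6.33% and 24.7% (exact Fisher test, adjusted p = 0.0130). Together with the called ones, these are the 3 CpGs with the largest differences at that threshold at each of these loci. In the Plagl1 upstream flank the CpG at chr10:13080999 had 29.5% and 50.2% (exact Fisher test, adjusted p = 1.88e-04). In the Rasgrf1 body the CpG at chr9:89972533 had 21.1% and 42.4% (exact Fisher test, adjusted p = 0.00498), and the CpG at chr9:89981515 had 36.7% and 57.9% (exact Fisher test, adjusted p = 0.0330).

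**Figure D4:**
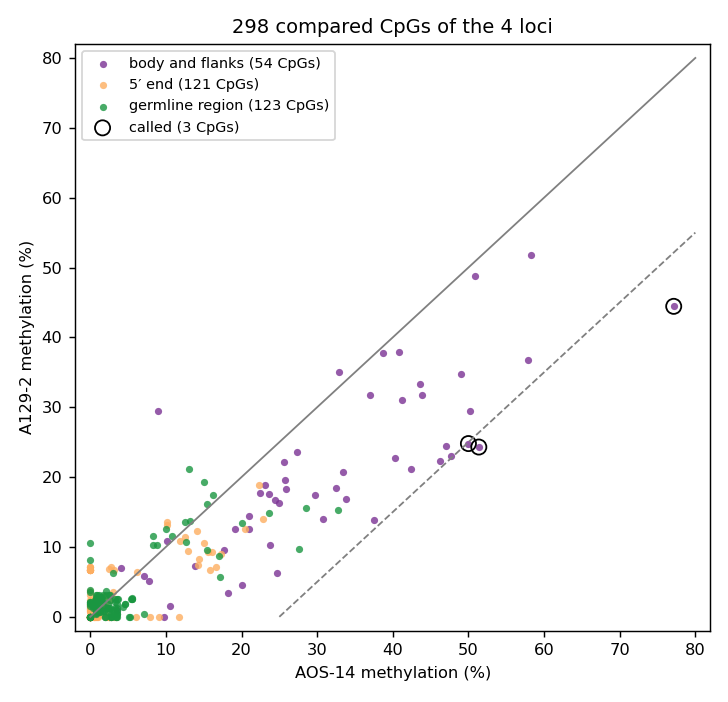
Methylation of each of the 298 compared CpGs in AOS-14 (horizontal axis, percent) and A129-2 (vertical axis, percent), coloured by segment. The solid line marks equal levels, the dashed line a loss of 25 points, and the circles the 3 called CpGs, all in body or flanks.

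Of 12 windows of 1 kb in the loci, 0 were called by Fisher's exact test, beside 5.05% of all 51142 windows. Without the 25 points 2 passed, the Plagl1 window above and the Igf2r downstream flank window, beside 56.2% of all. At an unadjusted p under 0.05 the same 2 windows stood. Of the 12, only the Igf2r downstream flank window, at 37.2% in AOS-14, was high enough there to lose 25 points. The others lie in germline regions and 5′ ends and had at most 8.40% in AOS-14. The shares over all windows are therefore not a matched background. The largest differences at the other loci were 1.32% against 3.28% at Grb10 (chr11:12036001-12037000, exact Fisher test, adjusted p = 0.164) and 6.87% against 8.40% at Rasgrf1 (chr9:89909001-89910000, exact Fisher test, adjusted p = 0.396).

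None of the 5′ ends of the 5 genes passed an adjusted p under 0.05, beside 33.7% of 11577 5′ ends over the genome, and beside 40.8% of left and 41.6% of right gene ends, the families in which they were adjusted. None of the tested member segments differed by 25 points, a size that called 1.64% of bodies, 1.96% of left flanks and 2.06% of right flanks. Genes related by family, IGF and insulin signalling, neighbourhood or imprint maintenance gave 22 testable 5′ ends of 39. By Fisher's exact test at an adjusted p under 0.05, 6 of these lost methylation in A129-2, beside 32.9% of all, and 0 gained it. With the 25 points 0 were called, beside 0.302% of all. Of the 22, only Slc22a2 reached 25% in AOS-14, so a loss of 25 points was not possible in the others. The medians of the 22 were 2.92% in A129-2 and 3.38% in AOS-14, against 2.89% and 3.61% over all 5′ ends. In AOS-14 the highest was Slc22a2, an organic cation transporter beside Igf2r, with 19.5% and 27.2% (exact Fisher test, adjusted p = 2.45e-05). The highest of the other lists were Igfbp4, an IGF binding protein, at 5.76% and 9.17% (exact Fisher test, adjusted p = 0.116), Grb14, an adaptor related to Grb10, at 4.12% and 4.73%, and Uhrf1, which guides maintenance methylation, at 3.02% and 3.57%.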

How the data were processed

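Bisulfite reads of 2 libraries were deposited as 1 table per line with a row per CpG. BSMAP and mm10 are named in the submitters' processing notes; its version, read trimming and duplicate handling: not given in the sources used here. The labels' protocols describe capture of about 100 Mb, while the series title names a method that cuts at CCGG, and which applies was not settled. Per the file headers, the authors' deposited level is a fraction, beside read counts for both strands together; levels were recomputed from these deposited counts.

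CpGs needed 10 reads in both lines. A level is the mean over CpGs; pooled or read-weighted levels are named as such. Fisher's exact test (two-sided) was run per CpG, per window of 1 kb and per segment, with Benjamini-Hochberg adjustment over all units of a kind in the genome; windows and segments needed 5 CpGs. CpGs and windows were called at an adjusted p under 0.05 and 25 points; segments carry no minimum difference. A 5′ or 3′ end spans 1 kb either side, a flank runs to 10 kb, and the body is the rest. Strands and promoters came from the RefSeq promoter table.

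Members and lists were chosen with earlier results of these data known. The germline regions of Airn and Rasgrf1 were placed at set distances from gene starts. RefSeq gene ends of Grb10 and Plagl1 differed from those assumed, so the nearest CpG-dense stretches (10 or more listed CpGs, steps up to 200 bp) were used, and this definition, body and flanks as the reference, the split by CCGG and the threshold for segments were settled after levels of these loci were seen. The text names, per locus, the called windows or else the one with the largest difference, up to 3 CpGs with the largest differences at an adjusted p under 0.05, and per related list the called genes and the highest in AOS-14. Alternatives varied reads, CCGG, strands, weighting and bounds. The test was checked on simulated data. Software was matplotlib 3.10.9, numba 0.67.0, scipy 1.17.1, numpy 2.4.6 and pandas 2.3.3 under Python 3.11.15.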

Additional observations from a re-analysis of the deposited data

Results flagged for a closer look

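Some CpGs had 10 reads in 1 line only and entered no comparison. Among them, the Grb10 CpG at chr11:12011917 was methylated in 35.3% of reads in AOS-14 (6 of 17 reads), above the 3 reads that a count of 0 allows, while A129-2 had 4 reads there. No other CpG of this kind in the 4 loci passed that limit. Its difference between the lines was not tested.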

How the results depend on the processing

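Over 256 alternatives, 205 kept direction and side of the threshold, moved less than the counting interval, or, for counts, stayed near the main count. One such count was 8 of 23 related 5′ ends with gene ends within 2 kb, beside 6 of 22. Germline regions lay below body and flanks in all 72 values computed, main ones included and none matched for CpG density, and the sizes moved. Not all of these are separate checks, because some settings changed none of the CpGs compared and repeat the main value. Such were bounds 1 kb wider and leaving out the deepest CpGs, at each locus. Narrower bounds at Igf2r and Airn, and at least 5 or 20 reads at Plagl1, also repeat it. These repeats count among the 205 too. Differences of means are in points, A129-2 before AOS-14 where a pair is given. Other results turned or moved as follows, and the cause was not tested.

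Germline region against body and flanks: at Grb10, AOS-14 gave -28.8 with at least 20 reads and -28.7 with at least 30; both lines gave -6.06 and -17.2 without CCGG, -12.2 and -28.5 weighted by reads, -3.73 and -5.84 with bounds 0.5 kb narrower, and -6.78 and -9.69 at the fixed distance of 11 to 14 kb, an alternative added after seeing the data. The last 2 pairs count left-over CpGs as body; with these left out, also added after seeing the data, they were -15.5 and -24.3, and -15.5 and -24.0. Grb10 gave -20.5 in AOS-14 on plus-strand reads and -13.1 in A129-2 on minus-strand reads. Plagl1 gave -6.63 and -11.4 without CCGG, -5.82 and -11.8 on plus-strand reads, -11.6 and -19.6 on minus-strand reads, -18.7 in AOS-14 with at least 30 reads and -12.0 in A129-2 weighted by reads. Igf2r and Airn gave -26.3 and -42.1 on minus-strand reads, and in AOS-14 -31.5 on plus-strand reads and -31.7 with at least 5 reads.

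Germline region against 5′ end: Grb10 gave 1.80 with at least 20 reads, 0.778 with at least 30 and 0.196 without CCGG in A129-2, and 0.178 with at least 30, -1.30 on minus-strand reads and 0.346 weighted by reads in AOS-14. Igf2r and Airn gave 0.598 and 1.53 with at least 20 reads, 1.09 and 3.21 with at least 30, and in A129-2 -1.77 on plus-strand and 0.900 on minus-strand reads.

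Between lines, the Grb10 germline difference of 0.130 turned to -0.154 with at least 30 reads, -0.259 on plus-strand reads and -0.126 at the fixed distance, and with narrower bounds was 0.215 and passed (adjusted p = 0.0195, exact Fisher test). The Grb10 5′ end turned to 0.250 with at least 5 reads and 0.541 without CCGG, the Rasgrf1 5′ end to 0.0366 without CCGG, and the Igf2r 5′ end to -0.519 on minus-strand reads. On plus-strand reads the Igf2r 5′ end was 0.805 and passed (adjusted p = 0.00904, exact Fisher test), and the Igf2r downstream flank no longer passed (adjusted p = 0.169). Called CpGs numbered 1 of 225 without CCGG (3.36% of all such CpGs), 12 of 298 at 15 points (9.45% of all) and 15 with no minimum (13.0% of all); called windows numbered 2 with no minimum and 0 in the other settings.

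No paired analysis was possible because each line has 1 library. Narrower bounds left no value for Plagl1, and the Rasgrf1 germline interval gave none in any setting. By depth, 298 of the 588 listed CpGs reached 10 reads in both lines.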
